A study of Mus musculus with 2 samples.

Results

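The cubilin complex and vitamin B12 handling were described through 10 mouse genes, Cubn, Amn, Lrp2, Dab2, Tcn2, Cd320, Mmachc, Mmaa, Mmab and Lmbrd1, out of 18193 genes that the array reads by at least 1 unshared probe set. Members were all 26 probe sets whose platform annotation gave 1 of these symbols, and no probe set with several symbols held any of them. RNA came from scrapings of the jejunum, the stretch of small intestine between duodenum and ileum, and was measured on 1 Affymetrix mouse expression array for wild-type mice and 1 for mice labelled XBP1 knock-out, each RNA being a pool from 3 mice. XBP1 is a transcription factor of the unfolded protein response, and the comparison asks what differs in the intestine when it is missing. The sources used here do not give the strain, age or sex of the mice, the deleted part of Xbp1, or whether the deletion covers all cells or the epithelium only. A scraping holds epithelium, immune cells and stroma together, so fewer cells of a type and less RNA per cell cannot be told apart. The genes were selected on the log2 ratios of this same comparison, Cubn first of all for its low ratio, so their values are a description without a test.

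Vitamin B12, or cobalamin, reaches the small intestine bound to intrinsic factor. In the ileum above all, the complex is taken up by cubilin, a large peripheral protein that depends on the membrane protein amnionless for its delivery to the apical surface and for its internalization. Megalin, an endocytic receptor of the LDL receptor family, works with them in kidney and yolk sac, and the adaptor protein DAB2 links such receptors to clathrin. Cobalamin leaves the enterocyte bound to transcobalamin, which other cells take up through the CD320 receptor, and inside cells it is released from the lysosome and processed into the cofactors of methionine synthase and methylmalonyl-CoA mutase.

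Signals are given as MAS5 values scaled to a common 75th percentile, in arbitrary units. A signal floor of 68.1 units, the 50th percentile over both arrays, separates readings taken as measured from those that are not, and a log2 ratio is the knock-out-labelled pool minus the wild-type pool after flooring. Where the dimmer array lay below the floor, the ratio is a bound. Each value rests on 1 array per pool, so there is no spread between replicates, no p-value is given, and precision is limited by having 2 arrays in all. As a technical yardstick without any variation between mice, the ratios from different probe sets of 1 gene had a pooled SD of 0.30 (3412 genes, probe sets above 2 times the floor on both arrays). Lower and higher are relative to the common percentile, and where another scaling turns the sign of a list median this is said beside it.

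The upstream sequences of the receptor pair are shown because Cubn and Amn had the lowest ratios of the 10 genes. They are the 250 bases before the annotated start site, from RefSeq on mouse GRCm38.p6, read 5′ to 3′ along the gene, with CpG dinucleotides in capitals. The Cubn bases lie at chr2:13491877-13492126 on the minus strand and the Amn bases at chr12:111270846-111271095 on the plus strand.
Cubn: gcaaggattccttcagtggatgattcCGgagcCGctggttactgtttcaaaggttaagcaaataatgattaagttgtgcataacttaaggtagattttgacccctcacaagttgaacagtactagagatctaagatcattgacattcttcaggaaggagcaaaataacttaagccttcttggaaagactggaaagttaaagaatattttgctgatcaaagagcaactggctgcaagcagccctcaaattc
Amn: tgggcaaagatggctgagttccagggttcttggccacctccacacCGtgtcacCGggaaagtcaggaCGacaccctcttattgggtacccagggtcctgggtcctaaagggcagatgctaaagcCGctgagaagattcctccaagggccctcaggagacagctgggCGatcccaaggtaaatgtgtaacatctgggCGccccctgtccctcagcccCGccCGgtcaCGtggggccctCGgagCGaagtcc
The Cubn stretch holds 2 CpG dinucleotides and the Amn stretch 11. Over the window of 300 bases that adds 50 bases after the start, G and C make up 44.3% for Cubn and 62.3% for Amn, against a median of 52.7% over 32851 windows. In both directions of these windows 10 short motifs were searched. GACGTG, the core of the element through which XBP1 acts, is present in 6.38% of all windows and is in neither of the pair, and CCACG, the part of the ER stress element that XBP1 and ATF6 can contact, is present in 32.8%, with 1 match in Amn and none in Cubn. The Amn match is on the opposite strand, from position -24 relative to the start, and overlaps a CACGTG sequence, found in 7.15% of windows, that begins at position -26. The Amn window also holds CCAAT, found in 37.4%, and GGGCGG, found in 35.7%, each once and on the opposite strand. The Cubn window holds none of the 10, which also included the HNF4 motif CAAAGTCCA, the HNF1 core GTTAAT, the GATA motif AGATAA, the CDX motif TTTATG and the TATA box TATAAA, present in 0.475%, 7.10%, 11.2%, 11.9% and 13.6% of windows. Among the 9 members with a window GACGTG was present in Lmbrd1 alone, at position -245 from 1 of its start sites. A match in so short a window is a description of letters and says nothing of binding.

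Both arrays were first checked as a whole. The floor was exceeded by 52.7% of probe sets on the wild-type array and 47.3% on the other, and the median log2 ratio of 12826 measured genes was -0.11. Xbp1 itself had ratios from -0.26 to 0.06 on 4 probe sets, and since the deleted part is not known these check neither label, so every direction rests on the labels alone. Enterocyte markers such as Alpi, the intestinal alkaline phosphatase, were bright on both arrays at 35192 and 20290. Slc10a2, the bile acid transporter that defines the ileum, was below the floor on both at 34.0 and 34.3, and Lct, lactase of the proximal and middle intestine, was bright at 36865 and 16523. Neither marker goes against the labelled region.

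Of the 10 genes, 8 were measured on at least 1 array. Of the 8, Cubn, Amn and Tcn2 were lower by 2-fold or more with the knock-out label and 0 were higher by as much, beside 5.08% lower and 2.25% higher among all measured genes. The ratios of Dab2 and Mmachc were bounds. The median log2 ratio of the 8 measured members was -0.97, and 6 of the 8 lay below 0, as did 60.2% of all measured genes. The choice of members used these ratios, so nothing is read from the counts. Among probe sets, 17 of 26 exceeded the floor on at least 1 array, 15 of the 17 had ratios below 0 (57.5% of all measured probe sets), 7 were lower by 2-fold or more (4.53%) and 0 higher by as much (2.48%). Those 7 belonged to the same 3 genes.

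**Figure D1:**
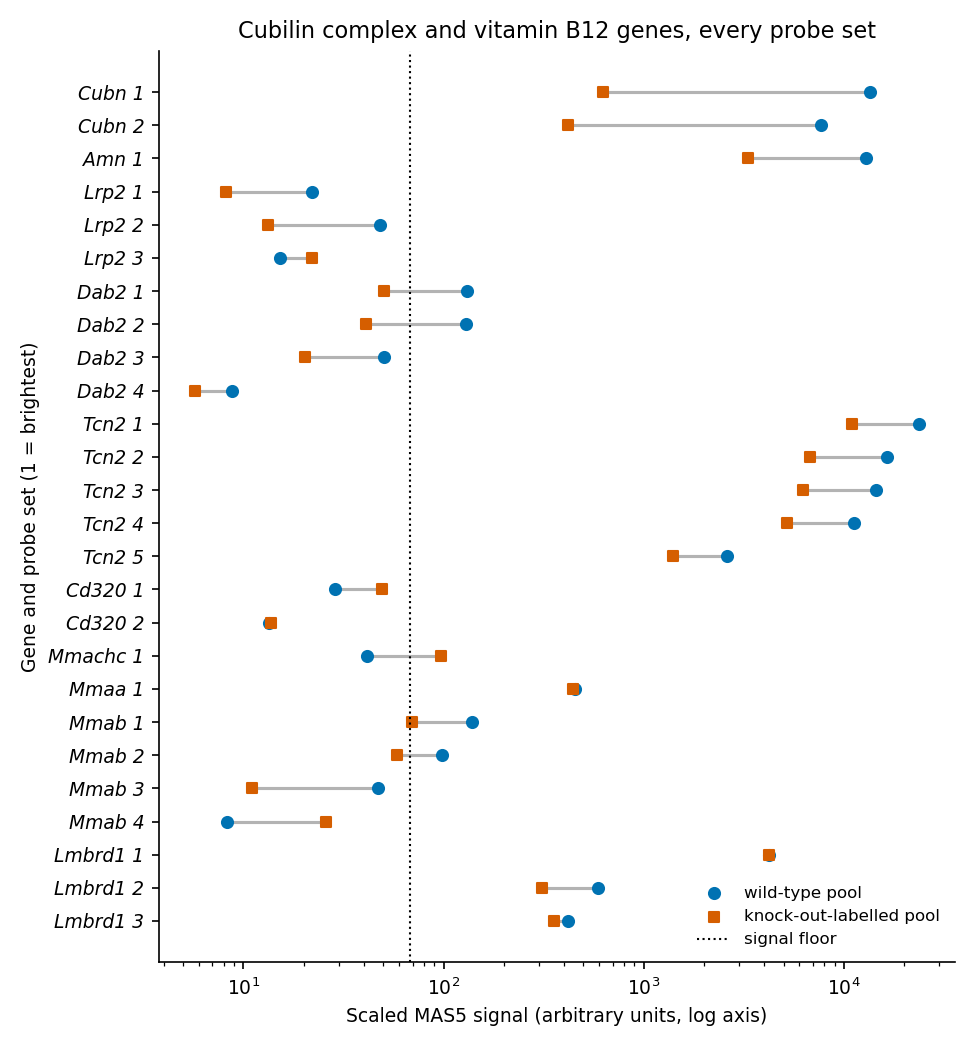
Scaled MAS5 signal (arbitrary units, log axis) of all 26 member probe sets in the wild-type pool (circles) and the knock-out-labelled pool (squares), 1 array each, with the signal floor of 68.1 as a dotted line. Both Cubn probe sets show the widest gaps among those above the floor, all 5 Tcn2 probe sets shift to lower signals, and all Lrp2 and Cd320 readings lie left of the floor.

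Cubn encodes cubilin, the receptor that binds the complex of cobalamin with intrinsic factor. Its brighter probe set, of a kind that can be shared by several transcripts, read 13564 on the wild-type array and 628 on the knock-out-labelled array. The other probe set, without such a mark, read 7663 and 419. On both, the knock-out-labelled signal stayed well above the floor, so neither fold is a bound: the gene was 21.6-fold lower by the first (log2 ratio -4.43) and 18.3-fold lower by the second (-4.19). The probe sets differed by less than the yardstick SD. Among 12826 measured genes only Defa31, an alpha-defensin of Paneth cells, had a lower ratio after flooring, and that ratio was a bound.

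Amn encodes amnionless, which carries cubilin to the apical membrane. Its only probe set read 12858 on the wild-type array and 3340 on the knock-out-labelled array. Amn was 3.85-fold lower, a log2 ratio of -1.94, the 70th lowest of 12826. Both components of the apical receptor were thus bright on the wild-type array and lower on the other, Cubn by the larger factor. The difference between their ratios has no test, and Amn has no second probe set as a check.

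Lrp2 encodes megalin. Its 3 probe sets read 22.0, 48.3 and 15.2 in wild-type RNA and, in the same order, 8.16, 13.3 and 22.0 in knock-out-labelled RNA. All 6 readings were below the floor, so Lrp2 had no usable ratio and was not counted as measured in either pool. The floor is a percentile of the signals and no estimate of background, so such readings do not show that megalin mRNA was absent. Dab2, the endocytic adaptor, was dim. Its brightest probe set read 131 and, below the floor, 50.3, and the next read 129 and 41.0. By these probe sets Dab2 was at least 1.92-fold and at least 1.90-fold lower, bounds that do not place it on either side of 2-fold. Its other probe sets were below the floor in both pools. With the floor at the 25th percentile, 19.6 units, the Dab2 ratio was -1.38 and passed 2-fold.

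DAB2 is also made by macrophages and other mucosal cells. Of 13 measured macrophage markers, 11 had ratios below 0 and 3 were at least 2-fold lower, with a median of -0.77 that became 0.08 with the ratio of the hybridisation spikes set to 0. The summed signal of the list was 19238 for wild-type and 10780 for knock-out. Mertk, Lyz2 and Cd14, the brightest at 6439, 4093 and 3230 for wild-type, weigh most in this sum. Lyz2, a lysozyme gene, was 3.32-fold lower, C1qc, a complement subunit, 2.22-fold lower and Cd68 2.11-fold lower. Whether the Lyz2 signal came from macrophages was not tested. Mrc1 and Itgam went the other way, with ratios of 0.54 and 0.26. Adgre1 read 215 and 138, a ratio of -0.64, and Csf1r read 2209 and 1265, a ratio of -0.80. Cd163 and Fcgr1, also on the list, were below the floor in both pools. The part of these cells in the Dab2 values was not tested.

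Tcn2 encodes transcobalamin, the protein that carries cobalamin in plasma. Its 5 probe sets read 23651, 16459, 14528, 11217 and 2595 for wild-type and, in the same order, 10968, 6761, 6289, 5190 and 1397 for knock-out. Every probe set was lower with the knock-out label, and the log2 ratios were -1.11, -1.28, -1.21, -1.11 and -0.89. By the brightest probe set Tcn2 was 2.16-fold lower, close to the 2-fold line. All but 1 of the probe sets carry a suffix that marks probes able to bind other sequences too, and the probe set without it gave 2.31-fold. The call depended on the scaling, with ratios of -0.86 after quantile normalization and -0.88 after loess, so Tcn2 lay just inside the line, with Mmab at -0.99 just outside it. Cd320, the cellular receptor for transcobalamin, read 28.8 and 49.5 on 1 of its 2 probe sets and 13.4 and 13.7 on the other, wild-type first. All 4 readings were below the floor.

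**Figure D2:**
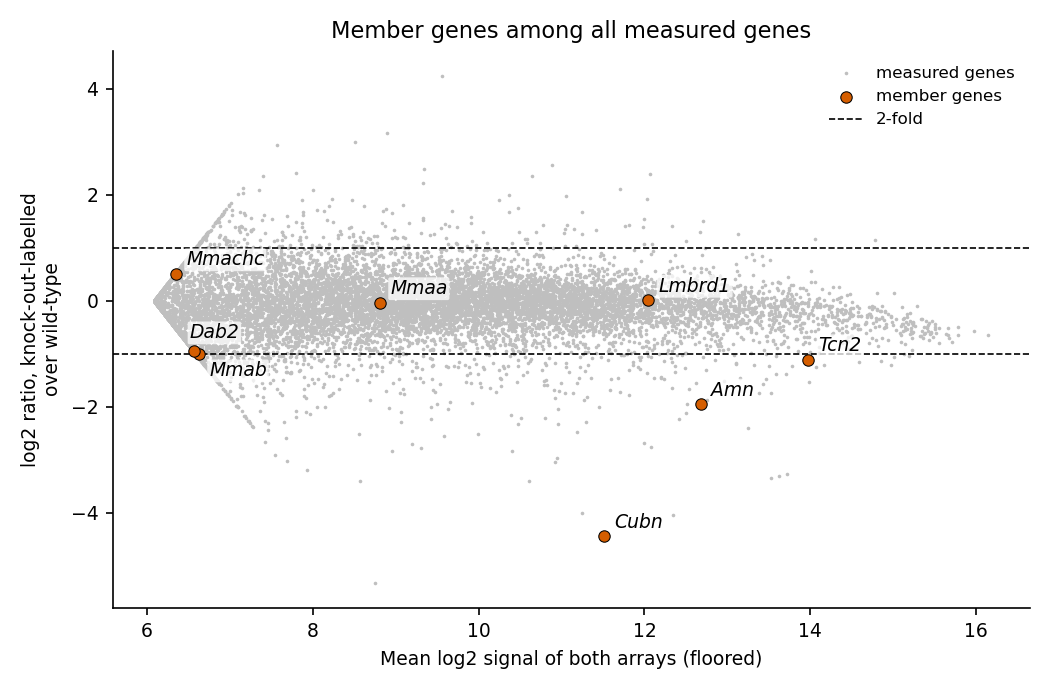
Log2 ratio of the knock-out-labelled over the wild-type pool against the mean log2 signal of both arrays, for 12826 measured genes (grey) and the 8 measured members (orange), with dashed lines at 2-fold. Cubn at -4.43 lies among the lowest points, Amn at -1.94 and Tcn2 at -1.11 lie below the lower line among bright genes, and Lmbrd1 and Mmaa lie near 0.

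The genes that act inside the cell had ratios nearer 0 than the apical receptor, and 2 of these 4 were dim. Because the members were selected on these ratios, nothing is read from this order. Lmbrd1 encodes a lysosomal membrane protein needed to release cobalamin into the cytosol. Its brightest probe set read 4208 and 4246, a log2 ratio of 0.01. The dimmer ones read 590 and 311, and 419 and 358, ratios of -0.93 and -0.23, so the probe sets of Lmbrd1 spread over more than the yardstick SD. Mmaa encodes a G protein that chaperones methylmalonyl-CoA mutase, and it read 453 and 443, a ratio of -0.03 on its only probe set.

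Mmab encodes the adenosyltransferase that makes adenosylcobalamin in mitochondria. Its brightest probe set read 139 and 69.8, the latter just above the floor, a log2 ratio of -0.99. A second probe set read 98.3 and, below the floor, 58.6, at least 1.44-fold lower, and the remaining probe sets were below the floor in both pools. Mmachc encodes the cytosolic protein that removes the upper ligand of cobalamin. Its only probe set read 41.6, below the floor, for wild-type and 97.0 for knock-out, so Mmachc was at least 1.42-fold higher. It was the highest of the members, and its ratio was 1.22 with the floor at the 25th percentile.

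Other genes of the cobalamin route were taken as a list of 11, of which 8 were measured. At this floor 0 of the 8 were called at 2-fold in either direction, and their median log2 ratio was -0.04, a value near 0 whose sign turned in several scalings. Abcd4, the lysosomal transporter that works with LMBRD1, read 764 and 421, a ratio of -0.86. Mmadhc, which directs cobalamin to cytosol or mitochondria, read 2445 and 2904, a ratio of 0.25. Among the enzymes that use cobalamin or serve those that do, Mmut, the methylmalonyl-CoA mutase, had -0.24, Mtrr, the reductase that reactivates methionine synthase, at most -0.24, and Mcee, the epimerase before the mutase, 0.08. Abcc1, an exporter that can carry free cobalamin, had 0.04. Hcfc1 and Thap11, regulators of MMACHC expression, had 0.35 and -0.12. Mtr, methionine synthase, and Cblif, intrinsic factor, which is made in the stomach, were below the floor on both arrays.

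The reactions on either side of the cofactors, methionine and propionate metabolism, were followed in 14 measured genes with a median of 0.04. At this floor 0 were called lower and 2 were at least 2-fold higher. Cbs, the first enzyme from homocysteine to cysteine, read 112 and, below the floor, 35.3, so its ratio of at most -0.72 is a bound. With the floor at the 25th percentile 1 gene of the list was called lower and 3 higher. Of all genes measured at that floor, 15.2% were lower and 6.85% higher. Pccb, a subunit of propionyl-CoA carboxylase, read 1425 and 3633 and was 2.55-fold higher. Its partner subunit Pcca read 544 and 557, a ratio of 0.04. Cth, which makes cysteine from cystathionine, read 1573 and 3774 and was 2.40-fold higher.

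The endocytic machinery that cubilin, megalin and their adaptors use was read as a list of its own. All 24 of its genes with a probe set were measured, 0 were called at 2-fold in either direction, and the median was -0.18, or 0.14 and 0.60 with the ratio of labelling or hybridisation spikes set to 0. Among genes above the floor on both arrays the lowest ratio was the -0.57 of Clcn5, the endosomal chloride exchanger that receptor recycling needs in kidney, and the highest the 0.35 of Gipc1, which binds the tail of megalin. Ocrl, an endosomal phosphatase, read 90.8 and, below the floor, 51.2, a bound of at most -0.42. Lrpap1, the chaperone of LDL receptor family proteins, read 977 and 745. In the LDL receptor family, to which megalin belongs, 8 genes were measured and 1 was at least 2-fold lower: Lrp12 read 1842 and 597 and was 3.09-fold lower. The family median was -0.40, and 0.35 with the hybridisation spike ratio at 0. Lrp1, a broadly expressed endocytic receptor, read 3497 and 1788, a ratio of -0.97. Proteins reported to bind cubilin or megalin had a median of -0.54 over 6 measured genes, or 0.24 with the hybridisation spike ratio at 0, and none of the 6 passed 2-fold. Apoa1, an apolipoprotein ligand of cubilin, read 90516 and 58170, a ratio of -0.64.

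Uptake of other vitamins was compared through 13 measured genes, of which 4 were lower and 0 higher by 2-fold or more. The median was -0.55, and 0.24 with the hybridisation spike ratio at 0. Scarb1, a lipid receptor that serves carotenoid and vitamin E uptake, was 2.47-fold lower. Slc23a1, the ascorbate transporter, read 1915 and 819 and was 2.34-fold lower. Slc52a3, the apical riboflavin transporter, read 8078 and 3464 and was 2.33-fold lower. Slc5a6, the transporter of biotin and pantothenate, was 2.17-fold lower and read 212 and 97.8. Folr2, a folate receptor of macrophages, read 121 and, below the floor, 13.0, so its ratio of at most -0.82 is a bound. With the floor at the 25th percentile 5 genes of this list were lower by 2-fold or more, beside 15.2% of all genes measured at that floor. The count was 3 after quantile normalization and after loess. It was 0 with the ratio of labelling or hybridisation spikes set to 0.

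**Figure D3:**
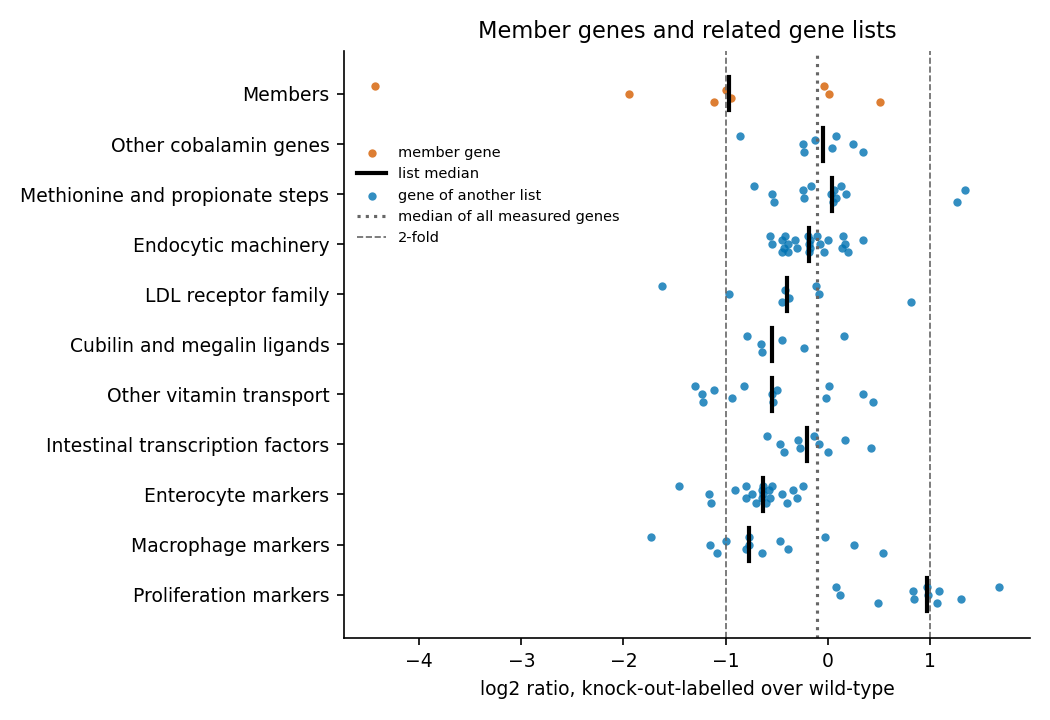
Log2 ratios of measured genes in the member list (orange) and in 10 other lists (blue), 1 point per gene, with the list median as a black bar, the median of all measured genes at -0.11 as a dotted line and 2-fold as dashed lines. Cubn stands alone at the left at -4.43, other cobalamin genes centre on -0.04, enterocyte and macrophage markers lie mostly below 0, and all 11 proliferation markers lie above 0.

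Cubn and Amn are genes of the absorptive cell, and general markers of that cell were also lower relative to the common percentile. All 21 measured enterocyte markers had ratios below 0, from -1.46 to -0.24 with a median of -0.63, 3 were at least 2-fold lower, and their summed signal was 917583 for wild-type and 582818 for knock-out. Their median was -0.09 after quantile normalization and 0.15 with the hybridisation spike ratio at 0. These 3 were Treh, trehalase, 2.75-fold lower, Lct 2.23-fold lower, and Cdhr5, a microvillus cadherin, 2.20-fold lower. Cubn and Amn had lower ratios than all 21 markers, while Tcn2 lay inside the range of the markers. The members were selected on these ratios and the markers are a general list, so nothing is read from this order. Proliferation and crypt markers had a median of 0.97 over 11 genes, with 4 at least 2-fold higher, and a summed signal of 9326 and 15335. The highest were Olfm4, a crypt base glycoprotein, at 1.68, Plk1, a mitotic kinase, at 1.31 and Ccnb2, a mitotic cyclin, at 1.10. Stromal and endothelial markers had a median of -0.03 over 14 genes, a sign that turned with scaling, and Col1a1, a collagen chain, was at least 2.24-fold higher. The 3 measured pancreatic acinar markers had a median of -0.96, with Cela3b, an elastase, at least 2.74-fold lower. Both calls rest on the brightest probe set. With the median over the probe sets of each gene, 0 stromal markers were called higher and 0 acinar markers lower. Transcription factors of intestinal identity, among them Hnf4a and Cdx2, ran from -0.60 to 0.43 with 0 of 10 past 2-fold. Whether the enterocyte share of the scrapings set part of the member ratios was not tested.

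Cubilin is richest in the distal small intestine, so markers of position were read as well. Of 8 measured distal markers 2 were at least 2-fold lower, with a median of -0.40, or 0.25 with the hybridisation spike ratio at 0. Fgf15, the ileal bile acid hormone, was below the floor for knock-out, with a bound of at most -0.46. Pyy, a hormone of distal endocrine cells, had a ratio of -1.94, and Fabp6, the ileal bile acid binding protein, went from 260 to 118. Slc51a and Slc51b, the basolateral bile acid exporter, had -0.34 and 0.37. Of 10 proximal markers, 2 were at least 2-fold lower, Lct and Cybrd1, a duodenal iron reductase with a ratio of at most -1.08. By its brightest probe set 1 was at least 2-fold higher, Onecut2 at 1.07. With the median over the probe sets of each gene 0 were higher by as much. The median of the 10 was -0.15. It was 0.07 after quantile normalization, 0.18 with the labelling spike ratio at 0 and 0.64 with the hybridisation spike ratio at 0. The part of sampling position in the Cubn value was not tested.

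The genes with ratios most like that of Cubn, by absolute difference in log2 ratio over the 2 arrays among 7719 genes that reached 4 times the floor, were secretory cell genes and a metabolic kinase. Defa39, an alpha-defensin, differed from it by 0.40, Itln1, the lectin intelectin, by 0.44 and Pdk4, an inhibitor of pyruvate dehydrogenase, by 1.03, all with ratios nearer 0. On the lower side of Cubn lay Defa31 alone, at least 39.7-fold lower, a difference of at least 0.88. Alpha-defensin genes are near copies of each other, so the 2 defensin values are uncertain.

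Chromosomal neighbours of the called members were examined after the member values were seen, as the 3 protein-coding genes on either side in RefSeq order. Of 18, 15 were measured, 2 were called lower at 2-fold and 0 higher. Of the neighbours of Cubn above the floor on both arrays, Rsu1, an adhesion adaptor gene, was lowest at -0.81 and Vim, which encodes vimentin, highest at 0.14. C1ql3 read 99.3 and St8sia6 112 for wild-type, and both were below the floor for knock-out at 23.5 and 59.1, so their ratios of at most -0.54 and at most -0.72 are bounds. Those of Amn ran from 0.04 for Exoc3l4 to 0.62 for Rcor1, a chromatin cofactor gene. Next to Tcn2, Slc35e4 read 175 and 77.5 and Dusp18, a phosphatase gene, 257 and 114, each with a ratio of -1.17, while Pes1, a ribosome biogenesis gene on the other side, had 0.15.

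**Figure D4:**
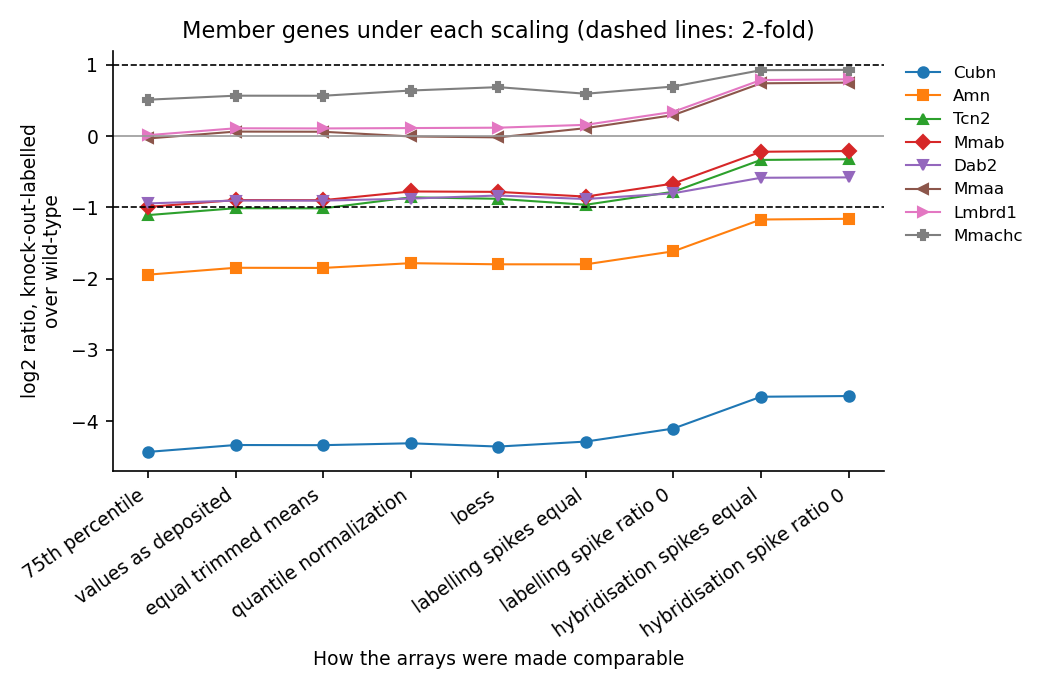
Log2 ratio of the 8 measured members under 9 ways of making the arrays comparable, with 2-fold as dashed lines. Cubn stays between -4.43 and -3.65 and Amn between -1.94 and -1.16, while Tcn2 moves from -1.11 to -0.33 when hybridisation spikes are set equal.

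Each other scaling moved the ratios of all measured members upward, by amounts that differed between genes. Hybridisation spikes are control RNAs, as a rule put into each hybridisation in the same amount. On their 18 probe sets the deposited signals had a median log2 ratio of -0.69. With their median ratio set to 0 the median of all measured genes was 0.62, and of the genes past 2-fold 95.4% were higher, against 30.6% in the main setting and 41.9% for the deposited values. In that setting Cubn had a ratio of -3.65 and Amn -1.16, both past 2-fold, and Tcn2 had -0.32. Lmbrd1 and Mmaa became 0.80 and 0.75. By ratio after flooring, Cubn was the lowest or second lowest measured gene in every setting tried.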

How the data were processed

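What the submitters deposited is linear intensity, 1 value per probe set, for 1 array per pool. Per the submitters' processing notes these are MAS5 signals. Software version and detection calls: not given in the sources used here. Apart from 64 controls the table holds 34945 probe sets with 1 symbol in the platform annotation, 932 with several and 9160 with none. Symbols were updated by Entrez number through the RefSeq table of GRCm38.p6, which held 99.4% of them. Where a gene had several probe sets, the brightest by mean log2 over both arrays stood for it.

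Arrays were brought to equal 75th percentiles (factors 1.034 and 0.967), floored at 68.1 and log2-transformed in Python 3.11.15 with numpy 2.4.6, pandas 2.3.3 and statsmodels 0.14.6. Called means at least 2-fold. The steps were tested on simulated data. The members and lists were chosen with earlier results of these data known. Named are all members, Xbp1, all measured other cobalamin genes, up to 3 genes at each end of each other list that passed 2-fold, and the genes nearest to Cubn. Further list members, and the neighbours of Cubn, Amn and Tcn2, were picked with values in view. Promoter windows came from the RefSeq table, which matched 9 of the 10 members. Alternatives covered scaling, floor, probe set rule and threshold.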

Additional observations from a re-analysis of the deposited data

How the results depend on the processing

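Over 14 alternatives, 160 values were recomputed: 117 stayed within the yardstick SD or within 1.5 times a count, 43 moved further and 0 called values turned sign. Part of the 117 could not move. Amn and Mmaa, each with 1 probe set above every floor tried, kept their ratios under each floor and probe set rule. Cubn and Amn stayed past 2-fold in all 12 alternatives that give a ratio, from -4.43 to -3.65 and from -1.94 to -1.16, and both passed the 3-fold threshold. Tcn2 ran from -1.21 to -0.32 and fell short of 2-fold after quantile normalization, after loess and with any spike scaling, leaving 2 lower members. In those settings 0.98% to 4.01% of all measured genes were lower by 2-fold or more. With the median signal of the hybridisation spikes made equal, the log2 ratios were -3.66 for Cubn, -1.17 for Amn, -0.58 for Dab2, -0.33 for Tcn2, 0.93 for Mmachc, 0.74 for Mmaa, -0.22 for Mmab and 0.79 for Lmbrd1, the member median was -0.28, and 130 measured genes were lower and 2557 higher. Setting the median ratio of these spikes to 0, a choice added after seeing the data, gave -3.65, -1.16, -0.58, -0.32, 0.93, 0.75, -0.21 and 0.80 in the same order, a median of -0.27, and 126 and 2641 genes. The same added choice for the labelling spikes gave -4.10 for Cubn, -1.62 for Amn, -0.78 for Tcn2, 0.29 for Mmaa, -0.67 for Mmab and 0.34 for Lmbrd1, with 321 genes lower and 711 higher. These settings shift alike every gene above the floor on both arrays.

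With the floor at the 25th percentile, 10 members were measured, of which 5 were lower and 1 higher. Dab2 had -1.38, Mmachc 1.22, Lrp2 became measured at a bound of -1.30 and Cd320 at 0.78. Of 16622 genes measured at this floor, 2531 (15.2%) were lower and 1139 (6.85%) higher. With the floor at the 75th percentile 5 members were measured, of which 3 were lower and 0 higher. Of 7173 genes measured at that floor, 219 (3.1%) were lower and 85 (1.2%) higher. A threshold of 1.5-fold gave 5 lower members, Mmab and Dab2 joining. Of all measured genes it gave 2093 lower (16.3%) and 1005 higher (7.84%), and 3-fold gave 135 (1.05%) and 55 (0.43%). The share of higher genes among those past 2-fold was 30.6% in the main setting, 41.9% as deposited, 44.0% after loess, 47.3% with equal labelling spikes and 95.2% with equal hybridisation spikes. Dab2 had no value over probe sets without a suffix, and Dab2, Mmab and Mmachc none at the higher floor. Dim members near the floor are the least certain. No paired analysis was possible because each group has 1 array.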
